A study of Mus musculus with 2 samples.

Results

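The complement and coagulation proteins are represented here by 49 named genes, whose mRNAs were found in the hepatocyte mRNA table through their RefSeq identifiers. All 49 genes were matched, out of 20313 genes with a symbol in that table, and where a gene had several transcripts the one with the greatest average level stood for it. Levels are given as RPKM, the reads on a transcript divided by its length in kilobases and by the size of the library. The genes comprised 39 whose proteins are mainly made by the liver, 5 that are mainly made by macrophages or other myeloid cells, and 5 that are made by vessel walls or other cells. RNA-seq was performed on primary hepatocytes of wild-type male C57BL/6J mice that were 5 weeks old when obtained, with 1 library from mice given intraperitoneal oil and 1 library from mice given intraperitoneal CCl4, a solvent whose metabolism injures hepatocytes and leads to fibrosis on repeated dosing. CCl4 was given as a 20% solution in mineral oil at 2.5 ml CCl4 per kilogram, 2 times per week. The labels give 8 weeks of injection and the methods of the study give 4 weeks. Hepatocytes were isolated by enzymatic perfusion and a density gradient, and how many mice went into a library is not given in the sources used here. Neither condition had a replicate, so no difference below has a replicate check or a p-value, and the sizes given describe these 2 libraries.

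Complement is a cascade of plasma proteases and binding proteins that tags and lyses microbes and damaged cells. It is started by C1q (classical pathway), by mannose-binding lectins (lectin pathway) or by slow turnover of C3 (alternative pathway), and all 3 routes converge on C3 and on the pore built from C5 to C9. Coagulation is a parallel protease cascade that ends with thrombin cutting fibrinogen to fibrin, and plasmin later dissolves the clot. Hepatocytes secrete most of these proteins, whereas C1q comes largely from macrophages, which in the liver are the Kupffer cells, and thrombomodulin and tissue factor pathway inhibitor come from endothelium.

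The oil and CCl4 libraries held about 57992575 and 64655551 reads, as read from the RPKM steps of short genes, so that 1 RPKM on a transcript of 1 kilobase stands for 58.0 and 64.7 reads. Values under 1 RPKM are listed as 0 in the deposited table. Of the 49 genes, 47 were above 1 RPKM in both libraries and none was above it in only 1 library. The other 2, F3 (tissue factor, the trigger of coagulation) and Cfd (complement factor D, known as an adipocyte protein), were listed at 0 in both. Fold changes are log2 of CCl4 over oil with 1 RPKM added to each value, and a gene was called at an absolute value of at least 1, which is a change of 2-fold. The median over all genes tested was 0.31 on this scale, and -0.07 over the genes at 10 RPKM or more with oil. Fold changes are given without removing either shift unless a scaling is named. Hepatocyte mRNAs were abundant, as the label of the cells implies, with albumin (Alb) at 8656 RPKM with oil and 6476 RPKM with CCl4. RNA of other liver cells was present in both libraries, with the endothelial genes Pecam1 at 35.1 and 56.4 RPKM and Clec4g at 238 and 380 RPKM, and the Kupffer cell gene Clec4f at 283 and 255 RPKM. In bulk RNA, fewer cells of a type and less RNA per cell cannot be told apart.

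Most of the complement and coagulation mRNAs were lower in the CCl4 library. Of the 47 genes above 1 RPKM, 26 were called lower, which is 55.3% of them against 5.58% of all 12009 genes tested. The genes called higher were C1qa, C1qb, C1qc and Tfpi, or 8.51%, against 18.6% of all genes. Many of the other genes are scarce or listed at 0 in 1 library, whereas all measured members but F13a1 and Tfpi were above 10 RPKM with oil. Among all 3674 genes at 10 RPKM or more with oil, 13.1% were called lower and 7.38% higher, so the share of members called higher was near that background. When the CCl4 library was scaled so that the median ratio was 1, 34 members were called lower and 2 higher, C1qb and C1qc, against 8.38% and 12.3% of all genes. The members called lower only with that scaling were F10 (-1.22), Cfb (-1.22), F5 (-1.20), Hgfac (-1.15), Habp2 (-1.15), Cfi (-1.14), F13b (-1.12) and F7 (-1.09). When the libraries were scaled without their 10 most abundant transcripts, 19 members were called lower and 4 higher, against 4.52% and 22.6% of all genes. With no such scaling, the 17 members not called were within 2-fold, 13 of them below 0 and 4 above 0 on the log2 scale. The median fold change over the 47 genes was -1.11. Their summed level went from 13288 to 6247 RPKM, or from 3.18% to 1.73% of the summed RPKM of all mRNA transcripts.

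**Figure D1:**
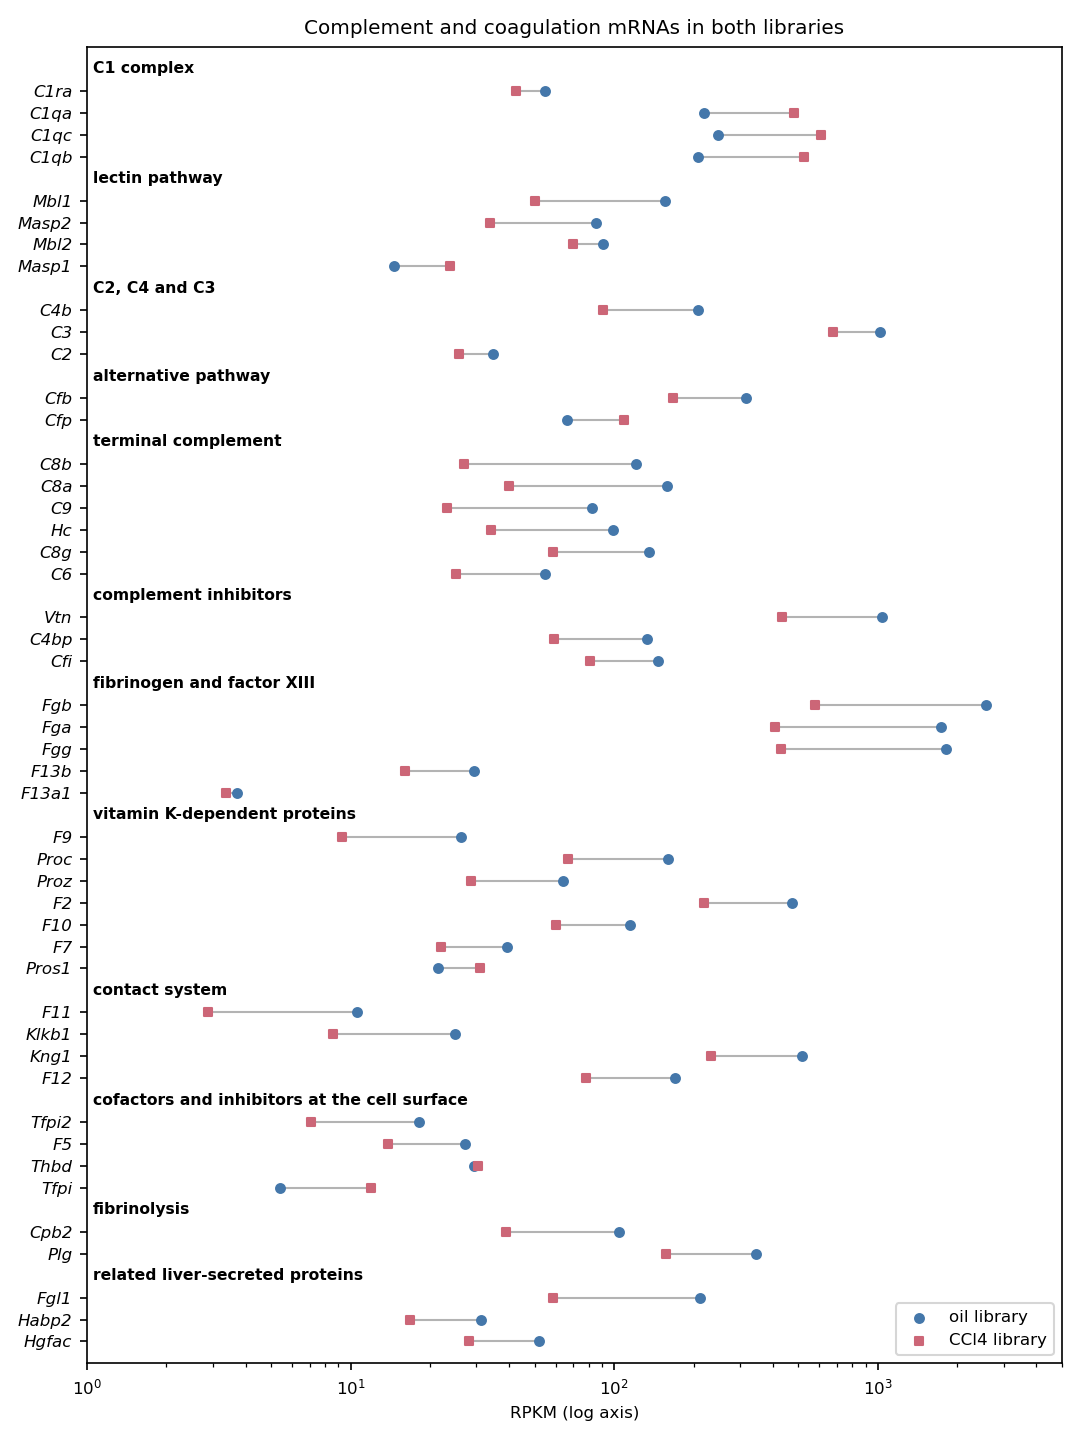
The RPKM of each gene in the oil library (circles) and the CCl4 library (squares) on a log axis, with 1 line per gene, grouped by the role of the protein; F3 and Cfd were listed at 0 in both libraries and are left out. The squares lie left of the circles for 39 of the 47 genes, and right of them for the C1q chains, Masp1, Cfp, Pros1, Tfpi and, by a small margin, Thbd.

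The C1q chains were higher in the CCl4 library, whereas the proteases that C1q carries were not. C1q is the recognition molecule of the classical pathway and is assembled from A, B and C chains. C1qa was at 219 RPKM with oil and 482 RPKM with CCl4, a log2 fold change of 1.13. C1qb was at 209 and 526 RPKM (1.33), and C1qc at 247 and 611 RPKM (1.30). The 3 chains were thus 2.20-, 2.52- and 2.47-fold higher and stayed close to one another, with C1qc at 1.13 times the level of C1qa in the oil and 1.27 times in the CCl4 library. In contrast, C1ra, the protease that C1q activates first, was at 54.9 and 42.3 RPKM (-0.37). C1s1, the other protease of this complex and not among the members, was at 92.4 and 74.1 RPKM (-0.31). Scaled to the median gene, C1qa was at 0.83, C1qb at 1.03 and C1qc at 1.0001, so the calls kept for C1qb and C1qc sat at the threshold. C1ra has a near-identical copy, C1rb, which was listed at 0 in both libraries, so few reads can have been assigned to that copy.

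The C1q genes are neighbors on chromosome 4, at chr4:136880126-136898844 of the GRCm38.p6 annotation (the same assembly as the mm10 build named in the submitters' processing notes). The 250 bases before the start of C1qb (chr4:136886201-136886450, minus strand) and of C1qc (chr4:136892915-136893164, minus strand) are shown because these genes moved together and against the liver-made genes. Sequences are from RefSeq, 5′ to 3′, and capitals mark each match on either strand to GAGGAA, the motif of the macrophage factor PU.1.

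C1qb: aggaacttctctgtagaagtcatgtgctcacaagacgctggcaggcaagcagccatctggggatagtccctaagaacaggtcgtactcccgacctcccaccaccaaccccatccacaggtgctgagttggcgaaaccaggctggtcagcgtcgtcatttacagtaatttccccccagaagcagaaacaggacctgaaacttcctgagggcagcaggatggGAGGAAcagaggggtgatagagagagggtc
C1qc: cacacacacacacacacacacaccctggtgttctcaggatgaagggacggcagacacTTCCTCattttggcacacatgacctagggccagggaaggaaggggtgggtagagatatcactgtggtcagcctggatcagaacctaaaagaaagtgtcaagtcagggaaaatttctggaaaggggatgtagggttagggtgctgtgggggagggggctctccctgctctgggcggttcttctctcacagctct

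Each of these 2 promoters held 1 match, at positions -30 to -25 relative to the start for C1qb and -193 to -188 for C1qc. The start behind the C1qc window lies 22 bases inside the gene as annotated, so the window overlaps the gene by that length. GAGGAA was common, since 23.1% of all 27024 gene promoters of the same length held it. None of the other motifs searched in this work (below) was found in these windows.

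The lectin pathway did not move as a unit. Mannose-binding lectins bind sugars on microbes and recruit the MASP proteases. Mbl1 was called lower, from 155 to 49.95 RPKM (-1.62), whereas Mbl2 was at 90.7 and 69.6 RPKM (-0.38). The order of the lectins was therefore different, with Mbl1 at 1.71 times the level of Mbl2 in the oil and 0.717 times in the CCl4 library. Masp2, which cleaves C4 and C2, was called lower, from 85.3 to 33.7 RPKM (-1.31). Masp1, which activates Masp2, was at 14.6 and 23.8 RPKM (0.67), one of only 2 liver-made genes above 0. Masp1 amounted to 0.171 times the level of Masp2 in the oil and 0.706 times in the CCl4 library.

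Of the central components, C4b was called lower and C2 and C3 were within 2-fold. C3, whose cleavage is the shared step of all pathways, was at 1016 RPKM with oil and 677 RPKM with CCl4 (-0.58), and ranked 40 among all genes with oil and 30 with CCl4. C4b went from 207 to 90.7 RPKM (-1.18). C4b has a near-identical copy, C4a, at 2.92 RPKM in the oil and listed at 0 in the CCl4 library, so reads could be split between the copies, but the level of C4a was small. C2 was at 34.7 and 25.8 RPKM (-0.41).

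The 2 measured genes of the alternative pathway were on opposite sides of 0, and neither passed 2-fold unless Cfb was scaled to the median gene (-1.22). Cfb (factor B), which supplies the protease of the C3 convertase, was at 318 and 167 RPKM (-0.92). Cfp (properdin), which stabilizes that convertase and is made by myeloid cells, was at 66.2 and 109 RPKM (0.71).

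All 6 measured genes of terminal complement were called lower, against 13.1% of all genes at 10 RPKM or more with oil. These proteins assemble into the membrane attack complex. C7, also part of that complex but not among the members, was listed at 0 in both libraries. Hc, the mouse gene of C5, went from 99.2 to 34.1 RPKM (-1.52), C6 from 54.7 to 25.2 RPKM (-1.09) and C9, the pore-forming component, from 82.5 to 23.2 RPKM (-1.78). C6 was at -0.93, under 2-fold, when the libraries were scaled without the 10 most abundant transcripts. The median over the 6 genes was -1.65, the lowest of the complement groups. C8 is built from 3 different chains, and they did not fall alike. C8a went from 159 to 40.0 RPKM (-1.97) and C8b from 121 to 27.0 RPKM (-2.13), whereas C8g, which encodes a lipocalin rather than a pore protein, went from 135 to 58.6 RPKM (-1.19). C8g was at 1.12 times the level of C8b in the oil and 2.17 times in the CCl4 library. By counting error alone (95% exact Clopper-Pearson intervals, from lower bounds of the reads), the log2 ratio of C8g lay between -1.44 and -0.98, apart from those of C8a (-2.23 to -1.76) and C8b (-2.40 to -1.94).

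C8a and C8b lie side by side at chr4:104766317-104876487, separated by 11131 bases, while C8g is on chromosome 2. Their promoters are shown for comparison with those of fibrinogen below, since the C8a and C8b levels fell about as far as those of the fibrinogen chains (C8b at chr4:104766067-104766316, plus strand; C8a at chr4:104876399-104876648, minus strand). Capitals mark GTTAAT on either strand, letters that recur in promoters of liver genes and are called the liver motif here.

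C8a: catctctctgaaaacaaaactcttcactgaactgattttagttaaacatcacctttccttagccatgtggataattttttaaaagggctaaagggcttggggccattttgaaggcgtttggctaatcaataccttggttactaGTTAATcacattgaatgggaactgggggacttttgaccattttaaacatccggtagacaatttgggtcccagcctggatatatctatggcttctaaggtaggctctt
C8b: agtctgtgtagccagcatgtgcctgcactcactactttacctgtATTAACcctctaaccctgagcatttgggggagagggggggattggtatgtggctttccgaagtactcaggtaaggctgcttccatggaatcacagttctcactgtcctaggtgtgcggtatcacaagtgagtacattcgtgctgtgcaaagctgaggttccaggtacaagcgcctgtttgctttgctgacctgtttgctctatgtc

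Both promoters held 1 match, at positions -107 to -102 for C8a and -206 to -201 for C8b. The start behind the C8a window lies 89 bases inside the annotated gene, so part of that window is within the gene and the C8a positions count from the inner start.

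Of the complement inhibitors, Vtn and C4bp were called lower. Vtn (vitronectin), which blocks insertion of the terminal complex, went from 1036 to 434 RPKM (-1.25), and C4bp, which speeds the decay of the classical C3 convertase, from 133 to 59.4 RPKM (-1.15). Scaled without the 10 most abundant transcripts, C4bp was at -0.99. Cfi (factor I), the protease that inactivates C3b and C4b, was at 146 and 81.1 RPKM (-0.84).

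The fibrinogen chains were the most abundant of all the members in the oil library and also fell the furthest, together with C8b. In the CCl4 library C3 (677 RPKM) and C1qc (611 RPKM) were above every fibrinogen chain. Fibrinogen, the precursor of fibrin, is built from equal numbers of Aα, Bβ and γ chains. Fgb was at 2575 RPKM with oil and 579 RPKM with CCl4, Fga at 1735 and 406 RPKM, and Fgg at 1814 and 429 RPKM. The log2 fold changes were -2.15 for Fgb, -2.09 for Fga and -2.08 for Fgg, or falls of 4.45-, 4.27- and 4.23-fold. The 3 chains therefore kept their proportions, with Fgb at 1.48 times the level of Fga in the oil and 1.42 times in the CCl4 library, and Fga at 0.957 and 0.947 times the level of Fgg. Fgb ranked 11 among all genes in the oil and 48 in the CCl4 library. The summed level of the chains went from 1.46% to 0.392% of the summed mRNA RPKM. In the oil library Fgb was 10.4 times as high as C1qc, and in the CCl4 library 0.948 times.

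Fgg, Fga and Fgb form a cluster at chr3:83007724-83049863. The 250 bases before each start are shown because these chains fell by similar amounts. The windows are chr3:83025903-83026152 (plus strand) for Fga, chr3:83049864-83050113 (minus strand) for Fgb and chr3:83007474-83007723 (plus strand) for Fgg. Capitals mark GTTAAT (the liver motif), TTGCNNAA (C/EBP, a family of liver and acute phase factors) and GAGGAA (PU.1) on either strand.

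Fga: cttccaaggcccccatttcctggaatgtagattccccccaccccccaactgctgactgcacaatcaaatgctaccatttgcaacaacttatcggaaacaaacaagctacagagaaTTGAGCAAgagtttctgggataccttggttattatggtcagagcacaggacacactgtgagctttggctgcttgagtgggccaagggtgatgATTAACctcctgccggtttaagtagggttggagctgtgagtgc
Fgb: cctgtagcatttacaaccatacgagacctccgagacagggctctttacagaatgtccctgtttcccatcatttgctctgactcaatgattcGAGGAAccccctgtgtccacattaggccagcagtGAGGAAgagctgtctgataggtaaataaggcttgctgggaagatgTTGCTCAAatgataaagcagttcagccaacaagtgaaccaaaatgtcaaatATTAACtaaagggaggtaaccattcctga
Fgg: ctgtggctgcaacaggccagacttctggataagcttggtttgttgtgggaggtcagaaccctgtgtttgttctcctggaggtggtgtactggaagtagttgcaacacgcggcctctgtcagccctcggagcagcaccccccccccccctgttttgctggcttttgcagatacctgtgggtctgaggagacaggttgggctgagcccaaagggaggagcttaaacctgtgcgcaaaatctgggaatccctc

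Fga and Fgb each held 1 liver motif match, at positions -43 to -38 and -29 to -24, and 1 C/EBP match, at -135 to -128 and -80 to -73. Fgb also held 2 GAGGAA matches, at -159 to -154 and -125 to -120, and no match overlapped another. The Fgg window held none of these letters, although its level fell as far as the others.

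Factor XIII crosslinks fibrin and consists of A and B chains from different cells. F13b, the liver-made carrier chain, was at 29.5 and 16.1 RPKM (-0.83). F13a1, the catalytic chain of myeloid cells and platelets, was at 3.70 and 3.36 RPKM (-0.11), and counting error alone covered 0 for it.

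**Figure D2:**
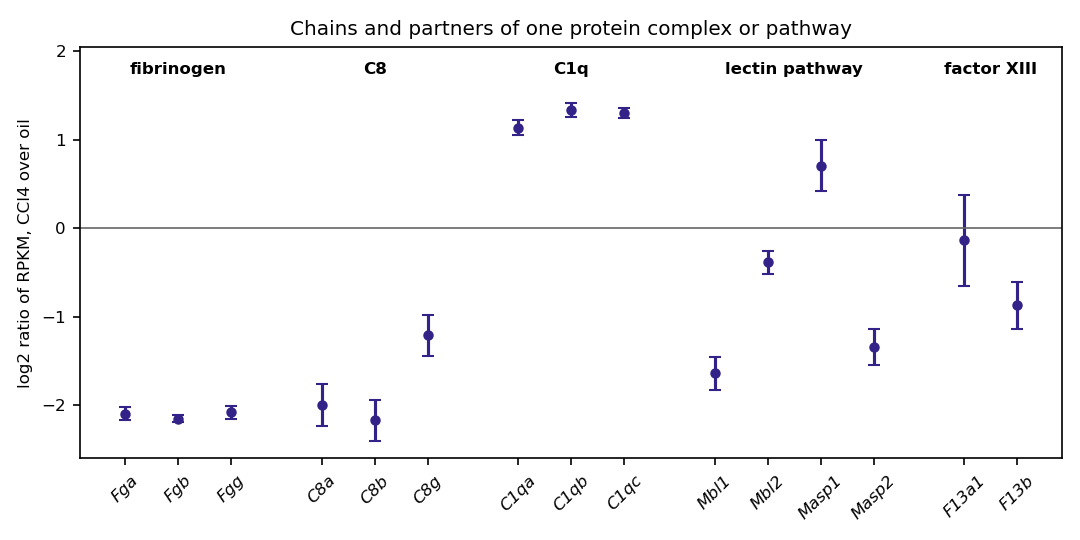
The log2 ratio of the RPKM in the CCl4 over the oil library for chains and partners of one complex or pathway; bars are 95% exact intervals of counting error alone, from lower bounds of the reads, and cover no biological variation. The fibrinogen chains lie between -2.15 and -2.08 and the C1q chains between 1.14 and 1.33, whereas C8g lies above C8a and C8b, Mbl2 above Mbl1, and Masp1 above 0 with Masp2 below it.

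Of the 7 vitamin K-dependent proteins, 4 were called lower, against 13.1% of all genes at 10 RPKM or more with oil. These proteins need a vitamin K-dependent carboxylation to bind membranes. F9 (factor IX, the protein lacking in hemophilia B) went from 26.3 to 9.25 RPKM (-1.41) and F2 (prothrombin), the most abundant of them, from 473 to 218 RPKM (-1.11). The anticoagulant Proc (protein C) went from 160.0 to 66.6 RPKM (-1.25) and Proz (protein Z), a cofactor for inhibition of factor Xa, from 64.2 to 28.6 RPKM (-1.14). The procoagulant and anticoagulant members of this group were thus both among the genes that fell. F10 (115 and 60.0 RPKM, -0.93) and F7 (39.1 and 22.0 RPKM, -0.80), the first proteases of the common and the tissue factor pathway, did not reach 2-fold. The calls of this group moved with the scaling. Without the 10 most abundant transcripts, F2 was at -0.95 and Proz at -0.98, and 2 of the 7 genes were called, whereas scaled to the median gene F10 was at -1.22 and F7 at -1.09 and both were called lower. Pros1 (protein S), the cofactor of protein C, was instead at 21.5 and 31.0 RPKM (0.51). Pros1 was the other liver-made gene above 0, and is known to be made by endothelial cells and macrophages too.

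All 4 measured genes of the contact system, which starts coagulation on surfaces and releases bradykinin, were called lower. Among all genes at 10 RPKM or more with oil, 13.1% were called lower. F11 went from 10.6 to 2.87 RPKM (-1.58), Klkb1 (plasma prekallikrein) from 24.9 to 8.58 RPKM (-1.43), Kng1 (kininogen, the source of bradykinin) from 514 to 234 RPKM (-1.13) and F12 from 169 to 78.4 RPKM (-1.10). Scaled without the 10 most abundant transcripts, Kng1 was at -0.97 and F12 at -0.94, and only F11 and Klkb1 of this group were called. F11 was the least abundant liver-made gene in both libraries and rests on at least 43 and at least 13 reads, so that the interval of its log2 ratio, -2.90 to -0.96, may be wider than counting error makes it. The related Kng2 was at 78.1 and 39.8 RPKM (-0.95), and reads may be shared between the kininogen copies.

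The cofactors and inhibitors at the cell surface differed from one another. F5 (factor V), the liver-made cofactor of factor Xa, was at 27.2 and 13.9 RPKM (-0.92). Thbd (thrombomodulin), the endothelial receptor that turns thrombin into an activator of protein C, was at 29.3 and 30.4 RPKM (0.05), with 0 inside its counting interval. Tfpi, the endothelial inhibitor of tissue factor, was called higher at 5.39 and 11.9 RPKM (1.02), just past the threshold. Its counting interval (0.74 to 1.57 for the log2 ratio) reached below 1, and the other Tfpi transcripts in the table were at 0.80 each, short of 2-fold. Tfpi2, a related inhibitor that is deposited in the matrix, was called lower, from 18.2 to 7.08 RPKM (-1.25). The vessel-made and other genes therefore had a median of 0.05 over the 3 that were measured.

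Both genes of fibrinolysis were called lower, against 13.1% of all genes at 10 RPKM or more with oil. Plg (plasminogen), the precursor of the clot-dissolving protease, went from 347 to 158 RPKM (-1.13), and Cpb2, a carboxypeptidase that slows clot dissolution, from 105 to 38.9 RPKM (-1.40). Plg was at -0.97 when the libraries were scaled without the 10 most abundant transcripts. Of the related liver-secreted proteins, Fgl1, a fibrinogen-like protein of hepatocytes, went from 212 to 58.4 RPKM (-1.84). Hgfac, the protease that activates hepatocyte growth factor, was at 51.8 and 28.1 RPKM (-0.86), and Habp2, a hyaluronan-binding protease, at 31.4 and 16.7 RPKM (-0.87).

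The genes were then compared by the cell source of their proteins. Of the 39 liver-made genes 25 were called lower and none higher, and 37 were below 0, with a median of -1.14. Of the 5 macrophage-made genes 3 were called higher and none lower, with a median of 1.13. Of all genes, 5.58% were called lower and 18.6% higher, and 30.1% were below 0. The shares among genes at 10 RPKM or more with oil were 13.1%, 7.38% and 54.1%. Every C1q chain had a higher fold change than every liver-made gene, of which Masp1 was the highest at 0.67. Among the liver-made genes, the median was -1.17 over 18 complement genes and -1.13 over 21 coagulation and related genes. The summed levels differed more, with a 2.01-fold fall for complement (3944 to 1963 RPKM) and a 3.41-fold fall for coagulation (8546 to 2504 RPKM), most of it in the fibrinogen chains (6125 to 1414 RPKM). The summed level went from 12490 to 4467 RPKM for the liver-made genes and from 745 to 1731 RPKM for the macrophage-made genes.

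The levels of cell type markers also differed between the libraries. For comparison, 18.6% of all genes were called higher and 5.58% lower. Among genes at 10 RPKM or more with oil these shares were 7.38% and 13.1%. The 9 matched hepatocyte markers were detected in both libraries; 5 were called lower and none higher, their median was -1.19, and their summed level went from 24016 to 13214 RPKM. Alb was at -0.42 and Cyp2e1 at -2.33, the ends of their range. All 10 Kupffer cell and macrophage markers were detected in both libraries; 5 were called higher, the median was 0.83, and their summed level went from 1172 to 3223 RPKM, of which Lyz2 alone made up 321 and 1645 RPKM. These markers did not move alike, with Clec4f at -0.15, Csf1r at 1.23 (75.5 and 179 RPKM), Lyz2 at 2.35 and Marco at 2.69. The 10 endothelial markers were all above 0, as were 69.8% of all genes and 45.9% of those at 10 RPKM or more with oil. Each of these markers was above 10 RPKM with oil. Their median was 0.73. Of them 2 (20%) were called higher, against 18.6% of all genes and 7.38% of those at 10 RPKM or more. Of the vessel-made members Tfpi was at 1.02, Thbd at 0.05 and Tfpi2 at -1.25. The summed level of the endothelial markers went from 577 to 980 RPKM. All 10 stellate cell and fibroblast markers were called higher, with a summed level of 75.5 and 893 RPKM, and 1 of them, Pdgfrb, was listed at 0 in the oil library. The part of cell composition in the fold changes of the members was not tested.

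**Figure D3:**
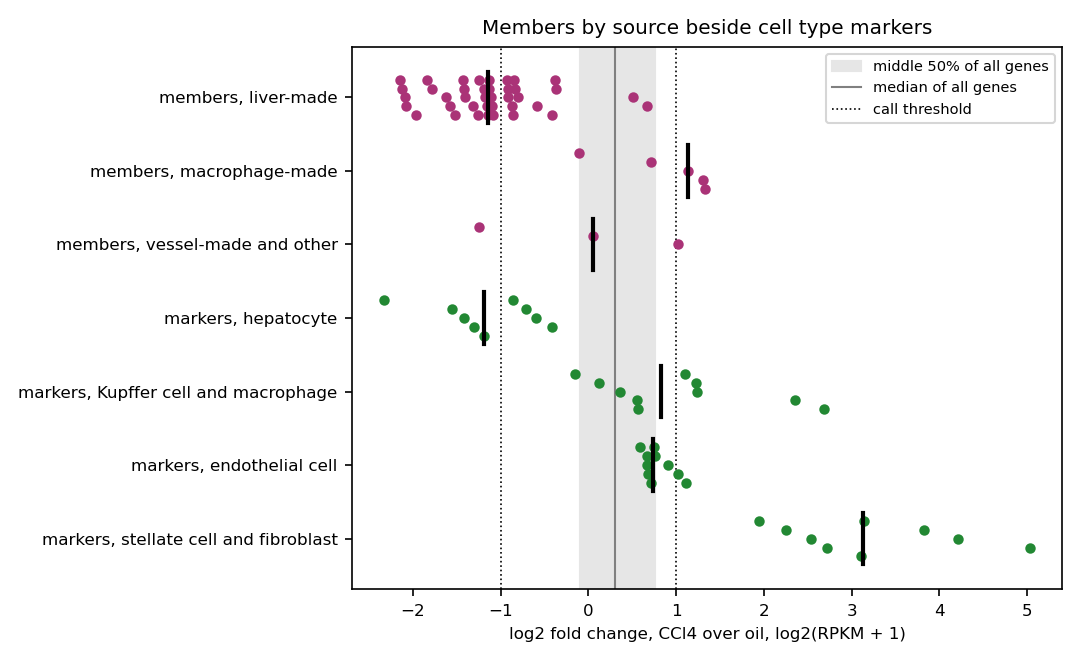
The log2 fold change of each gene with a value in both libraries, for the complement and coagulation genes by source (upper rows) and for cell type markers (lower rows); thick bars are medians over the list, the gray band and line give the middle 50% and the median of all genes, and dotted lines the call threshold. The liver-made genes lie with the hepatocyte markers, around medians of -1.14 and -1.19, and the C1q chains lie among the macrophage markers; the stellate cell markers, with Pdgfrb not drawn, are all above 1.9.

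Some members lie next to each other in the genome, and whether such neighbors were more alike than other members was not tested. There were 9 neighboring pairs with a gap of at most 100000 bases. Besides the fibrinogen, C1q and C8 clusters, F7, F10 and Proz follow each other at chr8:13025506-13076026 and were at -0.80, -0.93 and -1.14. F11 and Klkb1, at chr8:45240659-45294835, were at -1.58 and -1.43. Cfb and C2, only 88 bases apart at chr17:34856374-34882100, were at -0.92 and -0.41.

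A promoter was available from RefSeq for 38 of the 49 genes and 30 of the 39 liver-made genes, and not for C1qa, C2, C4b, Cfb, Cfi, Fgl1, Kng1, Masp1, Plg, Proc and Thbd. Motifs were searched as plain letters on both strands in the 250 bases before the start. GTTAAT (the liver motif) was found in 12 of the 30 liver-made promoters, or 40.0%, against 6.54% of all promoters and 4.22% of those of genes reaching 1 RPKM. It was also in 1 of the 4 macrophage-made promoters (Cfp) and 1 of the 4 vessel-made and other promoters (Tfpi2). TTGCNNAA (C/EBP) was found in 8, or 26.7%, against 9.55% and 7.997%. GAGGAA (PU.1) was found in 2, or 6.67%, against 23.1% and 22.5%, and in 3 of the 4 macrophage-made promoters. CAAAGTCCA (HNF4) was in none of the 38 promoters, and in 0.377% of all promoters. TATAAA was in 3 of the 30 liver-made promoters, or 10%, against 12.98% of all and 7.01% of those of genes reaching 1 RPKM. The liver-made genes whose promoter held the liver motif had a median fold change of -1.20 (12 genes), close to -1.15 for the 18 without it. For the C/EBP letters the medians were -1.51 over 8 genes and -1.13 over 22. Letters in a window are a description and do not show that a factor binds there.

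**Figure D4:**
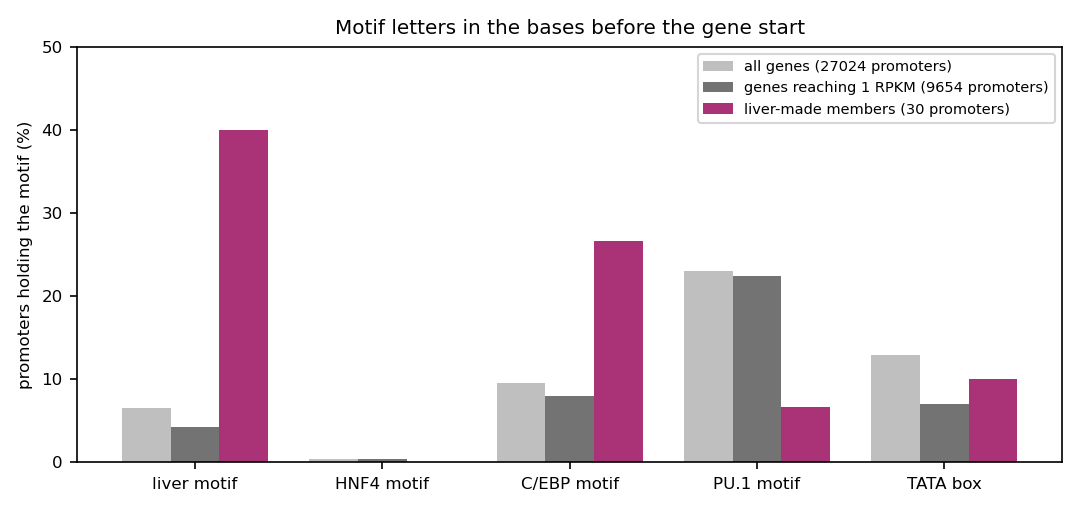
The percentage of promoters (250 bases before the gene start) that hold each motif on either strand, for all genes, for genes reaching 1 RPKM and for the liver-made members. The liver motif was in 40.0% of the liver-made promoters and 6.54% of all promoters, and the PU.1 letters in 6.67% and 23.1%.

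Among 25 further complement genes, 21 were measured, all in both libraries, of which 7 (33.3%) were called higher and 3 (14.3%) lower, against 10.1% and 4.76% of all genes with at least 1 RPKM in both libraries. The soluble regulators Serping1 (C1 inhibitor), at 143 and 100.3 RPKM (-0.51), and Clu (clusterin), at 409 and 278 RPKM (-0.55), were within 2-fold. The 7 genes called higher were receptors and collectins. The anaphylatoxin receptors C3ar1 (3.08 and 21.2 RPKM, 2.44) and C5ar1 (3.27 and 12.6 RPKM, 1.67) and the complement receptor subunits Itgam, Itgax and Itgb2 (1.47, 2.32 and 1.34) are leukocyte genes. Colec11, a collectin that can start the lectin pathway as Mbl1 does, was at 9.36 and 89.3 RPKM (3.12), and its partner Colec10 at 2.23 and 21.2 RPKM (2.78). Colec11 was thus below Mbl1 in the oil library and above it in the CCl4 library.

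Among 28 further coagulation and fibrinolysis genes, 25 were measured. Of the 21 with values in both libraries 5 were called higher and 5 lower, against the same 10.1% and 4.76% of all genes, and the other 4 were listed at 0 in 1 library. The plasma inhibitors were mostly on the lower side, with Serpinc1 (antithrombin) going from 542 to 269 RPKM (-1.01), Serpinf2 (antiplasmin) from 237 to 114 RPKM (-1.05), and Serpina10, the inhibitor that works with protein Z, from 141 to 38.2 RPKM (-1.86). Serpinc1 and Serpinf2 sat near the threshold. The counting intervals of their log2 ratios, -1.13 to -0.90 and -1.20 to -0.90, reached under 2-fold. The cell-associated activators of plasminogen were on the higher side, with Plau (urokinase) at 1.61 and 6.75 RPKM (1.57) and its receptor Plaur at 3.95 and 9.22 RPKM (1.04). Plat, the tissue activator of plasminogen, was listed at 0 in the oil library and at 6.89 RPKM in the CCl4 library. Procr, the endothelial receptor of protein C, was at 1.58 and 6.53 RPKM (1.54). The enzymes that prepare the vitamin K-dependent proteins did not reach 2-fold, with the carboxylase Ggcx at 14.5 and 10.3 RPKM (-0.45) and Vkorc1 at 72.8 and 45.2 RPKM (-0.68).

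Several transcripts were listed for 9 of the 49 genes, and their fold changes differed by at most 0.22 on the log2 scale. The difference exceeded 0.1 for 2 genes, Tfpi (0.80, 0.80 and 1.02) and Masp2 (-1.15 and -1.31). The Masp2 transcripts differed in level, at 39.2 and 85.3 RPKM in the oil library, whereas the transcripts of Cfb were at 317 and 318 RPKM. The counting intervals rest on lower bounds of the reads and are therefore too wide by amounts that differ between genes. As computed, the interval reached below a 2-fold change for 9 of the 30 called genes, C6, C8g, F11, F12, Klkb1, Proz, C4bp, Tfpi and Tfpi2, and it included 0 for F13a1 and Thbd.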

How the data were processed

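RNA-seq of 2 libraries of primary hepatocytes was used, 1 per condition, grouped by the treatment given in the labels. The submitters' processing notes name CASAVA 1.4, TopHat2 and mm10, and the counting program and annotation version are not given in the sources used here. The authors deposited RPKM values, with every value under 1 RPKM listed as 0, as checked on the new lncRNAs (all 1354 such values of the oil and 1347 of the CCl4 library). Read counts were deposited only for new lncRNAs. Columns with the authors' own fold changes, p-values and q-values were not used. Transcripts were paired with symbols through a RefSeq table of GRCm38.p6 (27045 of 27457 matched). Genes with at least 1 RPKM in at least 1 library were compared (12009), on log2(RPKM + 1).

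Library totals were searched as the number that gave whole reads (within 0.05) for RefSeq genes shorter than 400 bases in the mRNA and lncRNA tables, which held for 200 of 207 genes in the oil and 212 of 219 in the CCl4 library. The counts of new lncRNAs imply totals of 62438204 and 70960847 reads. Reads of each gene are lower bounds, from the shortest transcript length of 50 to 30000 bases at which the reads of each library came out whole. Their 95% exact Clopper-Pearson intervals cover counting error only, as reads that are PCR copies of 1 molecule are not independent. The calls and the reads were tested on simulated data, whose outcome is not reported here, and no value given here rests on it. Members, groups, lists and motifs were chosen with earlier results of these data known. The lists were hepatocyte, macrophage, endothelial, stellate, platelet, neutrophil, cholangiocyte and adipocyte markers and further pathway genes, and the genes named are all members, pathway genes of the same complex or direct regulators of members, and the markers that give the range and level of a list. Tf and Ly6g had no matching symbol, and some genes counted in the lists are not reported here by name. Alternatives changed the pseudocount, filter, scaling, threshold and choice of transcript. Python 3.11.15, numpy 2.4.6, pandas 2.3.3, scipy 1.17.1 and matplotlib 3.10.9 were used.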

Additional observations from a re-analysis of the deposited data

How the results depend on the processing

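No paired analysis was possible because each condition has 1 library, and none could be left out. The 26 lower and 4 higher calls were the same genes with a pseudocount of 0.1 or 0.5 RPKM and with a minimum of 1 RPKM in both libraries or no minimum. Without a minimum, the median of the vessel-made and other genes was 0, since F3 and Cfd entered at 0. The median of the liver-made genes was -1.16 with 0.1 RPKM and -1.15 with 0.5 RPKM. Scaling to the median gene, which lowers log2 ratios by 0.30, left 2 genes called higher (C1qb and C1qc) and 34 lower, with medians of -1.43 for liver-made, 0.83 for macrophage-made and -0.24 for vessel-made and other genes. It put Thbd below 0, and 59.4% of all calls were then higher, against 77.0%. Scaling without the 10 most abundant transcripts gave 4 higher and 19 lower, with medians of -0.98, 1.30 and 0.21, put F13a1 above 0, and took C4bp, C6, F12, F2, Kng1, Plg and Proz under 2-fold. Summing transcripts changed 1 call, that of Tfpi. A threshold of 4-fold left no gene higher and 4 lower (Fga, Fgb, Fgg and C8b). The reads of a gene are known only as lower bounds, so which members depth limits most cannot be ranked.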

Other observations

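Other cell types whose genes include complement or coagulation factors were also measured. Of the 7 platelet and megakaryocyte markers 4 were above 1 RPKM, with Pf4 called higher (4.46 and 16.8 RPKM, a log2 fold change of 1.70) and a summed level of 10.9 and 30.3 RPKM. Of the 6 neutrophil markers 5 were measured. All were below 0, against 30.1% of all genes and 54.1% of those at 10 RPKM or more with oil, and 1 was called lower. S100a8 was at 114 and 65.2 RPKM, and Mpo at 3.11 RPKM in the oil library and listed at 0 in the CCl4 library. Elane and Cxcr2 were also near the lowest listed level, at 2.74 and 2.85 RPKM with oil. Of the 6 cholangiocyte markers 4 were measured and 1, Spp1, was called higher (37.4 and 145 RPKM). For the platelet and the cholangiocyte lists that is 25% of the measured markers, against 18.6% of all genes. Of the 5 adipocyte markers Adipoq, Plin1 and Lep were listed at 0 in both libraries, as was Cfd; Cidec was at 2.11 RPKM in the oil library alone, and Fabp4, which is also made by macrophages and endothelium, was at 34.4 and 84.6 RPKM.

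Of the 1443 new lncRNAs, 3 lie within 10000 bases of a complement or coagulation gene, and each had fewer reads in the CCl4 library, as did 35.9% of all new lncRNAs. TCONS_00077693 (chr8:41184529-41185339, plus strand), 6095 bases from Fgl1, had 20 reads in the oil and 0 in the CCl4 library. TCONS_00026557 (chr15:6508392-6518186, plus strand), 9567 bases from C9, had 21 and 0 reads. Of the 107 new lncRNAs with 20 or 21 reads in the oil library, 6 had none in the CCl4 library, as had 16 of the 779 with at least 20. TCONS_00041540 (chr19:56274149-56278566, minus strand), 8543 bases from Habp2, had 34 and 10 reads. Whether the lncRNAs and their neighbors are linked was not tested.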
